A study of Mus musculus with 6 samples.

Results

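Transcripts of choroid plexus epithelium were far more abundant in 3 of the 6 brain libraries of a diet study than in the other 3. The choroid-rich libraries were chosen by 1 value, an Otx2 level of at least 1 FPKM (fragment counts divided by gene length and by sequencing depth), which put 3 of 6 libraries in the choroid-rich class and 3 in the choroid-poor class. The study sequenced messenger RNA from the temporal lobe of epileptic mice, all made epileptic with kainic acid (KA), a glutamate receptor agonist that provokes seizures, so that both diet groups carry that treatment and no group without it was analysed here. For 3 weeks, 3 mice ate a ketogenic diet (KD), high in fat and low in carbohydrate, and 3 ate a chow diet (CD), with 1 library per mouse. The tissue is labelled simply as brain, and no source used here gives the strain, age or sex or says how the tissue was cut out. The choroid-rich class held ketogenic replicate 3 and chow replicates 1 and 3, and the choroid-poor class held ketogenic replicates 1 and 2 and chow replicate 2. Each class therefore held libraries of both diets, in unequal numbers.

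The choroid plexus is a tuft of vascularised tissue in the brain ventricles, and part of that of the lateral ventricle lies in the temporal horn, beside the hippocampus. Its single layer of epithelial cells secretes cerebrospinal fluid by moving ions and water from blood to ventricle, seals the way between the cells with tight junctions, and releases carrier proteins such as transthyretin. Adult choroid plexus epithelium keeps the homeodomain factor OTX2, needed for its development and upkeep, and its cells share the motile cilia factor FOXJ1 with the ependymal cells that line the ventricle wall. In a bulk library, fewer cells of a type and less RNA per cell cannot be told apart.

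Otx2 (ENSMUSG00000021848) stood at 2.64 FPKM in ketogenic replicate 3, 3.47 FPKM in chow replicate 1 and 5.97 FPKM in chow replicate 3, against 0.0252 FPKM in ketogenic replicate 1, 0 FPKM in ketogenic replicate 2 and 0.0828 FPKM in chow replicate 2. These values chose the classes and are a description. The library just inside the threshold of 1 FPKM was ketogenic replicate 3 at 2.64 FPKM, and the one just outside was chow replicate 2 at 0.0828 FPKM, so no library lay near the threshold. In reads recovered from the steps of the FPKM values, Otx2 had 494, 815 and 1014 reads in the choroid-rich libraries and 6, 0 and 18 reads in the choroid-poor libraries. The 0 reads of ketogenic replicate 2 allow a level of up to 0.0158 FPKM, taking 3 reads as the limit, which covers counting error only. Splitting the 6 libraries into the 3 highest and 3 lowest by Ttr, by Foxj1 or by the median of the choroid plexus genes put 6 of 6 libraries in the same class as Otx2 did. Ttr and Foxj1 are markers of the same tissue, and the median includes Otx2, Ttr and Foxj1. These genes were chosen with earlier results of these data known, so nothing is read from the agreement.

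Because the classes were chosen by a gene of these same libraries, the difference between them is described for every gene and tested for none. Differences are means of the 3 choroid-rich minus means of the 3 choroid-poor libraries on the log2(FPKM + 0.5) scale, with limma's standard error (SE). That scale understates the difference of genes with low values. A gene is called here where the difference is at least 1 in size and the 2 classes of libraries do not overlap. Of the 16009 genes that averaged 0.5 FPKM or more, 175 (1.09%) were called higher and 56 (0.35%) called lower in choroid-rich libraries, and without the fold limit 2290 genes (14.3%) had every choroid-rich library above every choroid-poor library and 817 (5.1%) the opposite. Recovered reads ran from 38208955 to 53590925 per library, with a median of 921 per tested gene and library. No 2 libraries were alike within sampling noise, the smallest chi-square per gene over 15 pairs being 35.1. Libraries also stood apart by markers of brain regions, chow replicate 1 by thalamic genes, ketogenic replicate 3 by hypothalamic genes, and ketogenic replicate 2 and chow replicate 2 by striatal genes.

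The promoters of 5 genes that were near 0 in choroid-poor libraries are printed to show the DNA upstream of the set, each from 250 bases before to 50 bases after a RefSeq gene start of build GRCm38.p6. Otx2 is at chr14:48665060-48665359 on the minus strand, 1 of 4 starts in the table. Prlr, the prolactin receptor, is at chr15:10223656-10223955 on the plus strand, 1 of 3 starts. Kcne2 and Cldn2, a potassium channel subunit and a tight junction protein, are at chr16:92292139-92292438 (plus strand, 1 of 2 starts) and chrX:139800558-139800857 (plus strand). Mfrp, a membrane protein of the frizzled-related family, is at chr9:44101520-44101819 on the plus strand. Capitals mark GGATTA, which is TAATCC on the other strand, the core letters bound by OTX factors, and TGTTTAC, which is GTAAACA on the other strand, core letters of forkhead factors.
Otx2: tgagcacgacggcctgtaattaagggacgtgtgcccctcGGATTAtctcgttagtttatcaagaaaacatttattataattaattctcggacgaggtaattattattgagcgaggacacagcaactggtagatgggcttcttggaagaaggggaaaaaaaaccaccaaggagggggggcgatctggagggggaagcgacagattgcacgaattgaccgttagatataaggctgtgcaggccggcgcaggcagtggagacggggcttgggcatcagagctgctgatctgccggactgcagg
Mfrp: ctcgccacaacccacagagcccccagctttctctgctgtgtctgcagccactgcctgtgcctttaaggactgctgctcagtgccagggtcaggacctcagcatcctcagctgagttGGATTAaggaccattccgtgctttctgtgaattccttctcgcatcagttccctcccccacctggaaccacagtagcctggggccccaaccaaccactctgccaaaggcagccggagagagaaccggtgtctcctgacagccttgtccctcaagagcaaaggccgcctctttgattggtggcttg
Prlr: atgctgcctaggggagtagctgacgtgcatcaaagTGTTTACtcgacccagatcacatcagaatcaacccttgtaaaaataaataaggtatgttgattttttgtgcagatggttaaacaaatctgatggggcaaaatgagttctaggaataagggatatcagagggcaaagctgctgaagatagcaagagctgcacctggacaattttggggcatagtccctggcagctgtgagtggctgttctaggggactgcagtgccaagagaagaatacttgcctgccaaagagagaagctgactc
Kcne2: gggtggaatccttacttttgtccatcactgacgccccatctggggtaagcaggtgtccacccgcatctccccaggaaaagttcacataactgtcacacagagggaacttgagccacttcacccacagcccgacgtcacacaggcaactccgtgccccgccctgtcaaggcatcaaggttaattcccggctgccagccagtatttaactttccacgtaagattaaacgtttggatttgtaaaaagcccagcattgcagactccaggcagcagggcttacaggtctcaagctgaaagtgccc
Cldn2: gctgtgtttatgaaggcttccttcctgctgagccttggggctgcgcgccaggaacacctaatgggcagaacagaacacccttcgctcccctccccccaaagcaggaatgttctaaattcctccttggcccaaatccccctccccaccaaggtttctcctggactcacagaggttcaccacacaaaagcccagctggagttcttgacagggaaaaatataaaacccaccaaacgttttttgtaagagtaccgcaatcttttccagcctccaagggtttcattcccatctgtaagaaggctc

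Both motifs were searched on both strands. Where a gene had several starts, the printed window was the first that held either motif, or the first listed if none did. A motif in the Otx2 and Prlr windows therefore follows from that choice. TAATCC was in the windows of Otx2, at position -211 from the start, and of Mfrp, at -134. GTAAACA was in the Prlr window, at -215. Neither was in the windows of Kcne2 and Cldn2. Of 32851 promoters in the table, 2320 (7.06%) held TAATCC, and 4 of 62 promoters (6.45%) of the choroid plexus genes did, those of Ace, Car14, Igf2 and Otx2. GTAAACA was in 1199 of all promoters (3.65%) and in 1 of the 62 (1.61%), that of Prlr. These 62 promoters belong to 45 of the 56 choroid plexus genes described below. The letters are a description of these windows and say nothing of binding.

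Choroid plexus genes were gathered in 5 lists by role, 56 members in all, chosen with earlier results of these data known. Of the 56 members, 39 had all choroid-rich libraries above all choroid-poor libraries, beside 14.3% of all genes tested. That share is over genes that passed the filter of 0.5 FPKM, while the 39 include 5 members under it. Counts without overlap given below over all members of a list are set beside the same share and may also include such members. On average expression, 48 of the 56 passed the filter of 0.5 FPKM, and 24 of those were called higher and 0 lower, beside 1.09% and 0.35% over all genes. Many of them passed only through the libraries where they were high, and a gene of that kind had to differ, so nothing is read from these counts. The median difference of the 48 was 1.05, with 44 positive and 4 negative, and over all genes the median was 0.06, with 9548 positive and 6461 negative, a lean that depends on scaling, since that median was -0.00075 after quantile normalization and -0.03 after median centring. Within the 48 the members ranged from values near 0 in every choroid-poor library to no separation at all.

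**Figure D1:**
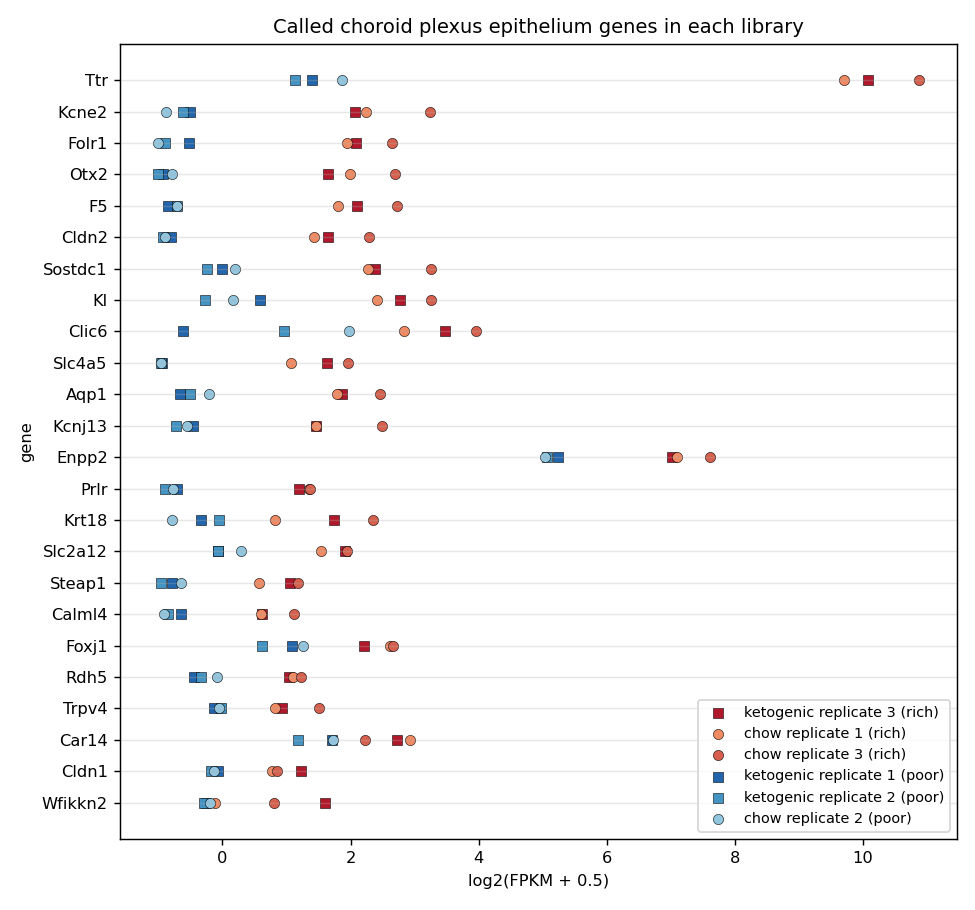
Expression of the 24 called choroid plexus genes in each library, log2(FPKM + 0.5) on the horizontal axis and 1 gene per row. Red and orange symbols are choroid-rich libraries, blue symbols choroid-poor libraries, squares ketogenic and circles chow; Ttr lies farthest apart, with choroid-rich libraries at 835 to 1883 FPKM and choroid-poor libraries at 1.69 to 3.14 FPKM.

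Transcription factors include the gene that chose the classes. Foxj1, the master regulator of motile cilia, was at 4.13, 5.65 and 5.82 FPKM in ketogenic replicate 3 and chow replicates 1 and 3, against 1.62, 1.04 and 1.90 FPKM in ketogenic replicates 1 and 2 and chow replicate 2. The choroid-poor libraries thus kept Foxj1 transcripts, where Otx2 was near 0. The differences were 3.01 ± 0.27 (SE) for Otx2 and 1.51 ± 0.21 for Foxj1. Lmx1a, a LIM homeodomain factor of the roof plate from which choroid plexus forms, was at 0.279, 0.344 and 0.490 FPKM in the choroid-rich libraries and listed at 0 in the 3 choroid-poor libraries. In reads that was 42, 65 and 67 against 0, 0 and 0, and the mean lay under the filter. Msx1, a homeodomain factor of the dorsal midline, was at 0.858, 0.962 and 2.00 FPKM in choroid-rich libraries and at 0.585, 0.374 and 0.270 FPKM in choroid-poor libraries, a difference of 0.92 ± 0.28 that misses the limit of 1. Gmnc and Trp73, which switch on the multiciliated cell programme, lay under the filter with no overlap, at 0.491 to 0.974 FPKM and 0.403 to 0.992 FPKM in choroid-rich libraries and at 0.0620 to 0.257 FPKM and 0.0603 to 0.250 FPKM in choroid-poor libraries. Of the 7 members of this list, 6 did not overlap, Otx2 by the rule itself, beside 14.3% of all genes, and the exception was Msx2.

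Secreted and carrier proteins held the widest gap in the table. Ttr (ENSMUSG00000061808), which encodes transthyretin, the carrier of thyroxine and retinol-binding protein in cerebrospinal fluid, was at 1074 FPKM in ketogenic replicate 3, 835 FPKM in chow replicate 1 and 1883 FPKM in chow replicate 3. In ketogenic replicates 1 and 2 and chow replicate 2 it was at 2.13, 1.69 and 3.14 FPKM. The lowest choroid-rich library had 266 times the Ttr of the highest choroid-poor library, and the difference was 8.76 ± 0.33 (SE). Ttr alone made up 0.410%, 0.311% and 0.728% of all FPKM in the choroid-rich libraries, and 0.000834%, 0.000635% and 0.00119% in the choroid-poor libraries. It was read in every library, with 90 to 192 recovered reads in the choroid-poor ones, so no library was without it.

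Other secreted products were set apart in the same way and less widely. F5, coagulation factor V, was at 3.81, 3.00 and 6.13 FPKM in choroid-rich libraries and at 0.0550, 0.114 and 0.110 FPKM in choroid-poor libraries, a difference of 2.97 ± 0.24 (SE). Sostdc1, a secreted antagonist of BMP and Wnt signals, was at 4.70, 4.35 and 9.04 FPKM against 0.498, 0.350 and 0.643 FPKM. Kl, the anti-ageing protein klotho, was at 6.31, 4.80 and 9.08 FPKM in choroid-rich libraries against 1.01, 0.324 and 0.622 FPKM in choroid-poor libraries. In all of these genes chow replicate 3 was the highest library. Enpp2, or autotaxin, which makes lysophosphatidic acid and is also made by oligodendrocytes, was at 129.7, 136.3 and 195.3 FPKM in choroid-rich libraries and kept a level of 37.3, 32.9 and 32.4 FPKM in choroid-poor libraries. Its difference was 2.13 ± 0.17. Calml4, a calmodulin-like protein, had a difference of 1.58 ± 0.20. Wfikkn2, a protease inhibitor that binds myostatin, was uneven among the choroid-rich libraries, at 2.55, 0.422 and 1.25 FPKM, with chow replicate 1 just above the 0.320 to 0.375 FPKM of the choroid-poor libraries. Its difference of 1.01 was 0.59 without ketogenic replicate 3. Igfbp2, a binding protein of insulin-like growth factors, did not overlap and missed the limit, at 0.94 ± 0.25. Its ligand Igf2, made in choroid plexus and meninges, was at 0.130 to 0.295 FPKM in choroid-rich libraries against 0.118 to 0.191 FPKM and overlapped. The widely made genes Cst3 and Ctsd, a protease inhibitor and a lysosomal protease, also overlapped, with differences of -0.07 and 0.15.

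Ion and solute transport is the machinery of fluid secretion, and 17 of its 20 members had no overlap, beside 14.3% of all genes. Aqp1, the water channel of the apical membrane, was at 3.13, 2.95 and 4.99 FPKM in choroid-rich libraries and at 0.135, 0.203 and 0.369 FPKM in choroid-poor libraries, a difference of 2.49 ± 0.23 (SE). Slc4a5, a sodium bicarbonate cotransporter, was at 2.60, 1.60 and 3.38 FPKM against 0.0184, 0.0153 and 0.0134 FPKM. That was 669, 516 and 789 recovered reads in choroid-rich libraries against 6, 4 and 4 in choroid-poor libraries. Slc4a5 was thus almost unread in the choroid-poor libraries, as was Otx2. Kcnj13, the inward rectifier Kir7.1 of the apical membrane, was at 2.25, 2.25 and 5.11 FPKM in choroid-rich libraries and at 0.224, 0.105 and 0.183 FPKM in choroid-poor libraries. Kcne2, a regulatory subunit of potassium channels, was at 3.71, 4.21 and 8.98 FPKM against 0.201, 0.151 and 0.0439 FPKM, a difference of 3.19 ± 0.32. Folr1, the folate receptor that moves folate into cerebrospinal fluid, was at 3.77, 3.35 and 5.75 FPKM against 0.193, 0.0388 and 0 FPKM, a difference of 3.03 ± 0.23. All 3 were highest in chow replicate 3.

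Most of the other transporters kept some level in choroid-poor libraries. Clic6, an intracellular chloride channel protein, was at 10.6, 6.62 and 15.1 FPKM in choroid-rich libraries and spread from 0.154 FPKM in ketogenic replicate 1 over 1.44 FPKM in ketogenic replicate 2 to 3.45 FPKM in chow replicate 2, so that its difference of 2.65 had an SE of 0.64. Slc2a12, a glucose transporter, had a difference of 1.75 ± 0.18 and Steap1, a metalloreductase, of 1.74 ± 0.21. Steap1 was an exception to that, at 1.59 FPKM in ketogenic replicate 3 and 0.0774 FPKM in ketogenic replicate 1. The calcium-permeable channel Trpv4 differed by 1.16 ± 0.21 and the membrane-bound carbonic anhydrase Car14 by 1.09 ± 0.23. Slc12a2, the sodium, potassium and chloride cotransporter NKCC1, was at 13.7, 17.6 and 11.9 FPKM in choroid-rich libraries against 7.78, 4.95 and 8.31 FPKM, a difference just short of the limit of 1. The anion exchanger Slc4a2 (0.86), the monoamine transporter Slc29a4 (0.96), the copper transporter Slc31a1 (0.65) and the lactate transporter Slc16a8 (0.59) also did not overlap and missed the limit. Slco1a5, an organic anion transporter, and Slc28a3, a nucleoside transporter, did not overlap under the filter, with 36, 37 and 36 reads against 2, 0 and 0 for Slco1a5. The 3 members that overlapped were Car12, Slc13a4 and Abcc4, genes of carbonic anhydrase, sulfate transport and drug efflux, with differences of 0.33, 0.57 and -0.06.

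Receptors split more evenly. Prlr was at 1.80, 2.06 and 2.09 FPKM in choroid-rich libraries and at 0.109, 0.0348 and 0.0873 FPKM in choroid-poor libraries, and its difference of 2.10 ± 0.15 (SE) was close in all 3 choroid-rich libraries. Rdh5, a retinol dehydrogenase kept in this list, was at 1.56, 1.65 and 1.85 FPKM against 0.234, 0.293 and 0.442 FPKM. Htr2c, the serotonin 2C receptor, known for its high level in choroid plexus and made by neurons too, overlapped, at 21.0, 15.5 and 10.5 FPKM in choroid-rich libraries against 2.01, 8.41 and 14.1 FPKM in choroid-poor libraries. Chow replicate 2, which is choroid-poor, thus had more Htr2c than chow replicate 3. Ace, angiotensin-converting enzyme, did not overlap at 0.97 ± 0.29, nor did the leptin receptor Lepr at 0.41 ± 0.23. Bmp7 and Sulf1, a growth factor and a heparan sulfatase, overlapped. Ramp1, a subunit of the CGRP receptor, was the 1 member of the 48 with no overlap on the lower side, at 13.9 to 15.9 FPKM in choroid-rich libraries and 15.99 to 22.0 FPKM in choroid-poor libraries.

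Among junction and keratin genes the claudins Cldn1 and Cldn2 were set apart, and Cldn3 and several general epithelial genes were not. Cldn2, a pore-forming claudin, was at 2.64, 2.19 and 4.37 FPKM in choroid-rich libraries and at 0.0748, 0.0268 and 0.0350 FPKM in choroid-poor libraries, a difference of 2.66 ± 0.24 (SE). Cldn1, a sealing claudin, was at 1.83, 1.22 and 1.30 FPKM against 0.455, 0.382 and 0.417 FPKM. The keratin Krt18 was at 2.85, 1.27 and 4.60 FPKM against 0.297, 0.465 and 0.0810 FPKM. Its usual partner Krt8 overlapped, at 2.44, 0.660 and 1.10 FPKM in choroid-rich libraries against 1.28, 1.48 and 0.169 FPKM in choroid-poor libraries. The epithelial adhesion gene Epcam overlapped too, with 1.09 FPKM in ketogenic replicate 3, 0.123 FPKM in chow replicate 1 and 0.272 FPKM in chow replicate 3, against 0.793, 0.689 and 0.124 FPKM in ketogenic replicates 1 and 2 and chow replicate 2. Both Krt8 and Epcam had their 3 ketogenic libraries above their 3 chow libraries instead, and neither passed the test of diet described below (limma adjusted p = 0.752 for each). Perp, Spint2 and Cldn3 also overlapped, while F11r, a junction adhesion molecule, did not (0.42 ± 0.12).

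The 3 choroid-rich libraries were not equal. Of the 24 called choroid plexus genes, 2 were highest in ketogenic replicate 3, 1 in chow replicate 1 and 21 in chow replicate 3. On the log2 scale ketogenic replicate 3 minus chow replicate 3 had a median of -0.52 over the 24 genes (range -1.17 to 0.80), and chow replicate 1 minus chow replicate 3 a median of -0.70 (range -1.52 to 0.70). The exceptions were Wfikkn2 and Cldn1, highest in ketogenic replicate 3, and Car14, highest in chow replicate 1. Since each class holds both diets, the difference was also taken inside each diet, with 1 library on one side and no replicate check. Within the ketogenic libraries, replicate 3 exceeded the mean of replicates 1 and 2 by at least 1 in 30 of the 48 choroid plexus genes that passed the filter, and in 2.39% of all genes. Within chow, the mean of replicates 1 and 3 exceeded replicate 2 by at least 1 in 24 of the 48, and in 2.5% of all genes. The classes behind these counts were chosen by Otx2, so nothing is read from them. Ttr differed by 8.81 within the ketogenic and 8.43 within the chow libraries, and Otx2 by 2.61 and 3.12.

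**Figure D2:**
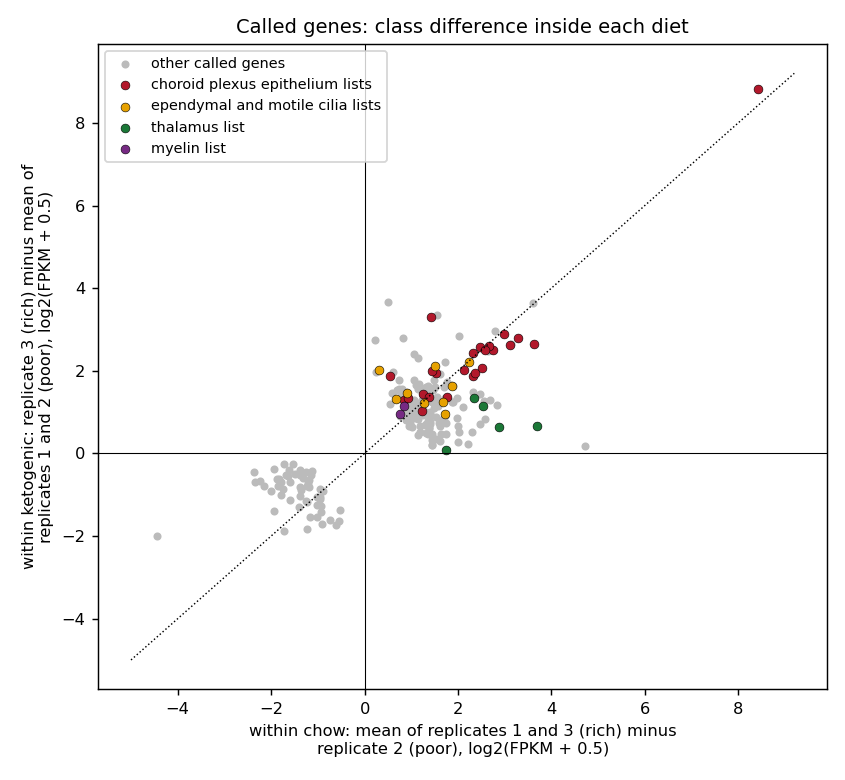
Difference between choroid-rich and choroid-poor libraries taken inside each diet for all called genes, log2(FPKM + 0.5), chow on the horizontal and ketogenic on the vertical axis, with a dotted line where both are equal. Choroid plexus genes (red) lie on both sides of that line, with Ttr at 8.81 within ketogenic and 8.43 within chow libraries and Clic6 at 3.30 and 1.42, while the 5 called thalamus genes (green) all lie below it, with Prkcd at 0.66 within ketogenic and 3.68 within chow libraries.

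Ependymal cells border the choroid plexus and share its ciliary genes, and their markers were also higher in choroid-rich libraries. Ccdc153 was at 1.88, 2.19 and 2.58 FPKM in choroid-rich libraries and at 0.558, 0.0656 and 0.286 FPKM in choroid-poor libraries. Dynlrb2, a dynein light chain, was at 3.73, 3.23 and 4.43 FPKM against 0.447, 0.520 and 1.01 FPKM, a difference of 1.91 ± 0.22 (SE). Tmem212 and the adenylate kinase Ak7 differed by 1.47 ± 0.22 and 1.36 ± 0.20. Of the 11 ependymal genes, 8 did not overlap, beside 14.3% of all genes. Of the 9 that passed the filter, 5 were called higher, beside 1.09%, and Ccdc153, Tmem212 and Ak7 passed mainly through the choroid-rich libraries, so nothing is read from that count. Their summed level was 43.1, 39.5 and 32.6 FPKM in the choroid-rich libraries and 20.8, 18.1 and 18.5 FPKM in the choroid-poor libraries, none of which reached the lowest choroid-rich sum. Of 33 motile cilia genes, 21 did not overlap on the higher side and 0 on the lower side. Among the 22 that passed the filter, 13 did not overlap on the higher side and 0 on the lower side, beside 14.3% and 5.1% of all genes tested. Of these 22, 4 were called, beside 1.09%. Drc7, of the dynein regulatory complex, was at 2.78, 2.72 and 4.58 FPKM against 0.256, 0.164 and 0.357 FPKM, a difference of 2.32 ± 0.22. It passed mainly through the choroid-rich libraries, so nothing is read from the counts of 13 and 4 either. The others were the microtubule protein Tekt1 (1.23 ± 0.17) and the radial spoke heads Rsph1 (1.05 ± 0.21) and Rsph4a (1.04 ± 0.40, and 0.62 without ketogenic replicate 3). The part of ependyma in the values of genes shared with choroid plexus was not tested.

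Stromal, vascular and immune cells of choroid plexus and its surroundings showed smaller differences. The fibroblast and meningeal list had 1 called gene of 11, beside 1.09% of all genes, and its median difference was 0.12. That gene was the collagen Col8a1, at 1.501, 1.47 and 2.62 FPKM in choroid-rich libraries against 0.646, 0.426 and 0.446 FPKM. Of the 11, 4 did not overlap on the higher side, beside 14.3% of all genes. Among these were the matrix proteoglycans Lum (0.58 ± 0.13 SE) and Dcn (0.57 ± 0.24). The summed level of that list was 18.1 to 27.1 FPKM in choroid-rich and 18.1 to 23.4 FPKM in choroid-poor libraries, and these ranges overlapped. Endothelial genes had a median difference of 0.07 and none of 9 was called, beside 1.09% higher and 0.35% lower over all genes. They summed to 100.04 to 135.5 FPKM in choroid-rich libraries against 101.5 to 116.7 FPKM. Microglial genes had a median of -0.23, and 2 of 8 were lower with no overlap, beside 5.1% of all genes. These were the homeostatic markers Tmem119 and Siglech, at -0.37 ± 0.15 and -0.35 ± 0.15. Border macrophage genes had a median of 0.05, and 2 of 5 were lower with no overlap, Cd163 at -0.43 ± 0.18 and Mrc1 at -0.24 ± 0.16. Pineal gland and retinal pigment epithelium also use OTX factors, and genes of these tissues were low throughout. Pineal genes summed to 0.929 to 1.21 FPKM in choroid-rich libraries against 0.651 to 0.736 FPKM. Rpe65, the retinoid isomerase of the pigment epithelium, was lower in choroid-rich libraries, at 0.571, 0.241 and 0.746 FPKM against 0.863, 2.11 and 2.01 FPKM, and Best1, a channel of the same cells, overlapped.

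**Figure D3:**
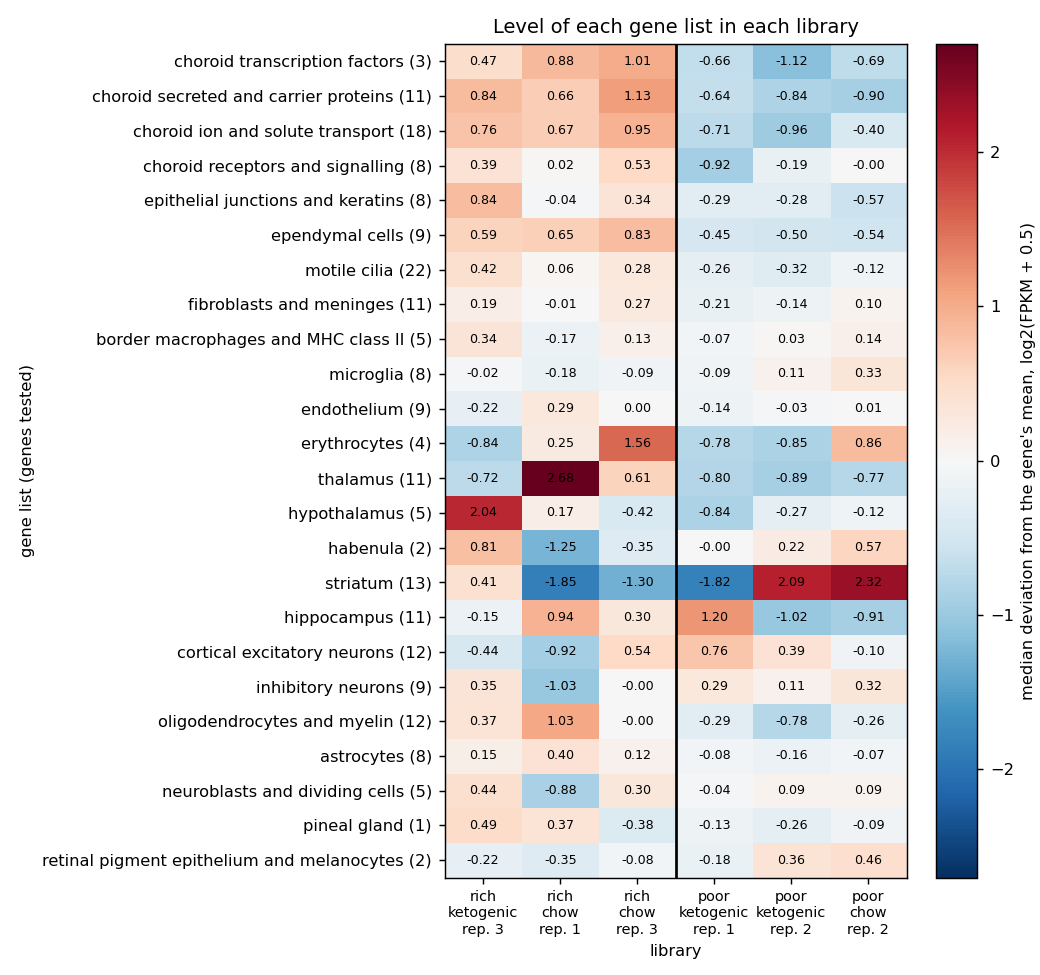
Level of each of the 24 gene lists (rows, with the number of genes tested) in each library (columns), as the median over its genes of the log2(FPKM + 0.5) value minus that gene's 6-library average. The 3 choroid-rich libraries stand left of the line and the 3 choroid-poor libraries right of it; thalamus reaches 2.68 in chow replicate 1, hypothalamus 2.04 in ketogenic replicate 3, and striatum 2.09 in ketogenic replicate 2 and 2.32 in chow replicate 2.

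Markers of brain regions moved with the classes as well, each through 1 or 2 libraries. Thalamic genes summed to 32.1 FPKM in ketogenic replicate 3, 396.5 FPKM in chow replicate 1 and 72.4 FPKM in chow replicate 3, against 23.6, 21.3 and 24.4 FPKM in ketogenic replicates 1 and 2 and chow replicate 2, and 5 of the 11 were called higher, beside 1.09% of all genes. Prkcd, a protein kinase of sensory thalamic relay neurons, was at 4.47, 135.3 and 13.2 FPKM in choroid-rich libraries against 2.52, 2.75 and 2.86 FPKM in choroid-poor libraries, and its difference of 2.71 ± 1.09 (SE) was 1.36 without chow replicate 1. Tcf7l2, the thalamic selector factor, was at 0.866, 22.7 and 3.53 FPKM against 0.575, 0.210 and 0.816 FPKM, and its difference of 2.33 was 1.23 without chow replicate 1. Slc17a6, the vesicular glutamate transporter of thalamus, was at 13.9, 74.0 and 22.0 FPKM in choroid-rich libraries against 7.71, 4.66 and 6.60 FPKM. In each of these genes chow replicate 1 was the highest library, and ketogenic replicate 3 was the lowest of the choroid-rich libraries. The median difference of the 11 genes was 0.22 within ketogenic and 2.34 within chow libraries. Among choroid lists, the median was 1.87 within ketogenic and 1.77 within chow libraries for secreted proteins, and 1.36 and 1.38 for transcription factors. It was 1.27 and 1.085 for transport, 0.96 and 0.18 for receptors, and 0.91 and 0.62 for junctions and keratins. The classes were chosen by Otx2 and many choroid genes passed the filter through choroid-rich libraries, so nothing is read from these medians. Hypothalamic genes summed to 39.4, 8.71 and 3.25 FPKM in choroid-rich libraries against 4.22, 3.60 and 6.21 FPKM, with ketogenic replicate 3 alone high. Pmch, the precursor of melanin-concentrating hormone, was at 6.68, 0.551 and 0.265 FPKM against 0.0711, 0.0594 and 0.130 FPKM, and its difference of 1.61 was 0.61 without ketogenic replicate 3. How far these regions shape the differences of other genes was not tested.

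Myelin genes were higher in choroid-rich libraries, and striatal genes were split otherwise. All 12 myelin genes had positive differences with a median of 0.89, and 10 did not overlap, with 14.3% of all genes doing so. Their summed level was 1592, 2405 and 1170 FPKM in ketogenic replicate 3 and chow replicates 1 and 3, against 994.1, 690.5 and 982.9 FPKM in ketogenic replicates 1 and 2 and chow replicate 2. Of the 12, 2 were called higher, beside 1.09% of all genes. These were Ermn and Ugt8a, of the myelin cytoskeleton and of myelin galactolipid synthesis, at 1.09 ± 0.32 (SE) and 1.07 ± 0.34. Of the astrocyte genes, Gfap, the filament of reactive astrocytes, was called at 1.01 ± 0.28, and the water channel Aqp4 stood at 0.97 ± 0.28. Striatal genes were high in 2 choroid-poor libraries and 1 choroid-rich library, with sums of 311.6, 58.7 and 83.4 FPKM in choroid-rich libraries against 58.0, 895.3 and 1124 FPKM in choroid-poor libraries. None of 13 was called, beside 1.09% higher and 0.35% lower over all genes. Cortical excitatory genes had 12 of 12 negative differences with a median of -0.59, and the classes overlapped in each of the 12. Over all genes, 14.3% did not overlap on the higher side and 5.1% on the lower side. Hippocampal genes, of the tissue next to the plexus of the temporal horn, overlapped in all 11 that passed, such as C1ql2 of dentate granule cells at 2.77, 14.5 and 7.57 FPKM in choroid-rich libraries against 14.5, 0.134 and 0.544 FPKM in choroid-poor libraries. Haemoglobin genes, a sign of blood, overlapped too, with 4.41, 12.7 and 35.3 FPKM summed over the erythrocyte list in choroid-rich libraries against 4.07, 3.28 and 18.5 FPKM.

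**Figure D4:**
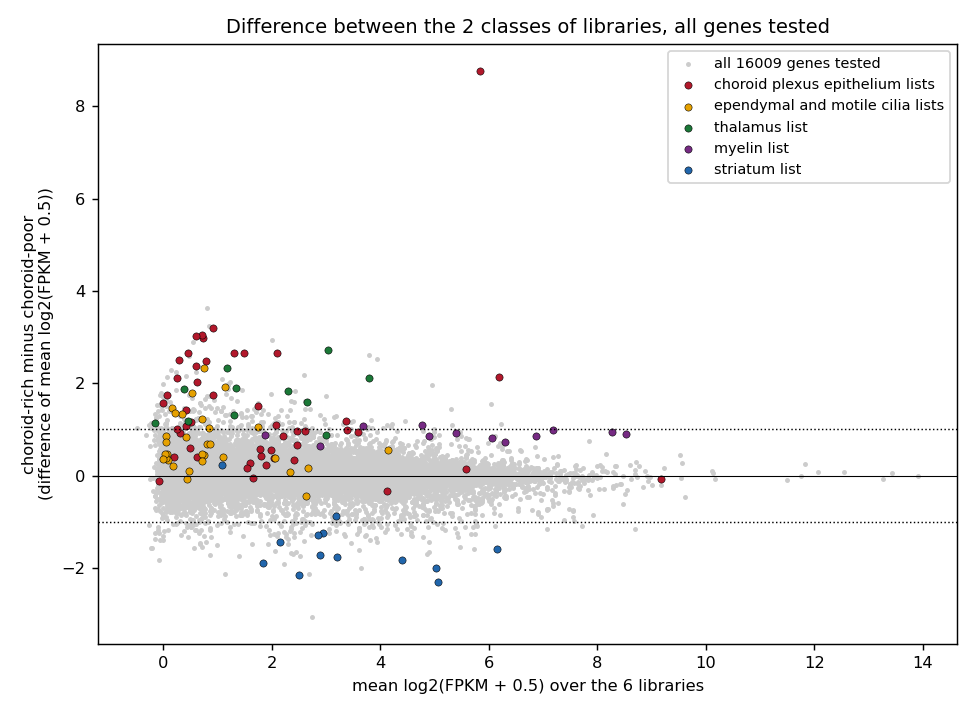
Difference between choroid-rich and choroid-poor libraries (vertical axis, log2 scale) against mean expression over the 6 libraries (horizontal axis, log2(FPKM + 0.5)) for the 16009 genes tested, 1 point per gene, with dotted lines at differences of 1 and -1. Ttr stands at 8.76, the other choroid plexus genes (red) reach 3.19, and striatum genes (blue) have a median of -1.71.

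Outside the lists, the named genes called higher varied to unlike degrees among choroid-rich libraries. The choroid-rich libraries lay closest together in ratio for Prr32, Mfrp, Tmem72 and Lrrc23. Prr32 was at 3.53, 2.23 and 5.17 FPKM in choroid-rich libraries against 0, 0.0401 and 0.0699 FPKM in choroid-poor libraries, a difference of 2.89 ± 0.27 (SE). Mfrp was at 2.61, 2.18 and 4.28 FPKM against 0.0819, 0.0411 and 0.0717 FPKM, a difference of 2.60 ± 0.23. Tmem72, a transmembrane protein, was at 1.11, 0.951 and 2.03 FPKM against 0.00413, 0.0207 and 0.0339 FPKM, and the leucine-rich repeat gene Lrrc23 of the ciliary axoneme was at 4.55, 3.32 and 4.19 FPKM against 0.666, 0.526 and 0.784 FPKM. The smallest difference of these 4 genes within a diet was 1.65, that of Tmem72 within ketogenic libraries. The pooled difference over the same libraries chose these genes, so nothing is read from that value. Defb11, a beta-defensin gene, varied more, at 0.853, 1.47 and 3.45 FPKM in choroid-rich libraries, and was listed at 0 in all 3 choroid-poor libraries. Of genes named after their values were seen, 1500015O10Rik, which RefSeq lists as Ecrg4, a secreted neuropeptide precursor known from choroid plexus, was at 8.89, 7.94 and 16.9 FPKM in choroid-rich libraries against 1.24, 0.790 and 0.882 FPKM in choroid-poor libraries. The unnamed transcript 2900040C04Rik was at 5.74, 3.44 and 8.94 FPKM and listed at 0 in all 3 choroid-poor libraries.

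Other named genes called higher also varied more among choroid-rich libraries, and most were highest in chow replicate 1. Shox2, a homeodomain factor of thalamus, was at 33.3 FPKM in chow replicate 1, 6.95 FPKM in chow replicate 3 and 0.150 FPKM in ketogenic replicate 3, against 0.118, 0.0269 and 0.106 FPKM in ketogenic replicates 1 and 2 and chow replicate 2. Its difference was 3.23 with an SE of 1.29. Rab37 (1.98 ± 0.82), Epn3 (2.24 ± 0.54), Patj (1.76 ± 0.62), Glra1 (2.16 ± 0.50) and Lhx1os (2.24 ± 0.52) were also highest in chow replicate 1. Without that library the difference was 1.92 for Shox2, 0.95 for Rab37 and 1.00 for Patj. Agt, angiotensinogen, made by astrocytes of deep brain regions, was at 49.7, 57.9 and 16.4 FPKM in choroid-rich libraries against 5.88, 3.25 and 10.2 FPKM in choroid-poor libraries. The calcium buffer Calb2 was at 31.6, 66.5 and 17.9 FPKM against 5.28, 2.96 and 8.15 FPKM, and Igsf1 differed by 1.87 ± 0.48. The mitochondrial mt-Nd4l, which overlaps its neighbour in the genome so that counting may split reads, was at 38.1, 223.1 and 25.9 FPKM against 14.7, 10.1 and 23.3 FPKM, and its difference of 1.97 was 1.03 without chow replicate 1. Of the 175 genes called higher, 21 were highest in ketogenic replicate 3, 93 in chow replicate 1 and 61 in chow replicate 3, and 86 differed by at least 1 within both diets. The pooled difference over the same libraries chose these genes, so nothing is read from the 86.

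Genes called lower were fewer and lay mostly with chow replicate 1, which was the lowest library in 45 of the 56, with ketogenic replicate 3 lowest in 9 and chow replicate 3 in 2. Kcnj4, an inward rectifier of forebrain neurons, was at 36.4, 4.41 and 25.6 FPKM in choroid-rich libraries and at 38.9, 65.0 and 57.7 FPKM in choroid-poor libraries, a difference of -1.66 ± 0.72 (SE). Nr4a2, an orphan nuclear receptor of cortical subplate and claustrum, was at 11.4, 4.69 and 13.3 FPKM against 29.3, 23.9 and 19.3 FPKM. The voltage-gated potassium channels Kcnh4 (-1.66 ± 0.64) and Kcnh3 (-1.39 ± 0.66), the guanine exchange factor Ngef (-1.55 ± 0.58) and the actin regulator Phactr1 (-1.32 ± 0.48) are forebrain genes as well. Without chow replicate 1 these differences were -0.78 for Kcnj4, -0.88 for Kcnh4, -0.56 for Kcnh3, -0.87 for Ngef, -0.78 for Phactr1 and -0.92 for Nr4a2, all under the limit of 1 in size. AC128672.1, with no described role, was at 2.695, 0.614 and 2.97 FPKM in choroid-rich libraries against 3.49, 40.5 and 42.5 FPKM, high in the 2 libraries with the highest striatal sums. Ketogenic replicate 3, with a striatal sum of 311.6 FPKM, had only 2.695 FPKM of it. The remaining named genes, Igfn1, Abi3bp, Scube1, Lingo3, Gcnt2 and Pou3f1, had differences from -1.74 to -1.27. Without chow replicate 1 that of Igfn1 was -0.70, of Scube1 -0.90, of Gcnt2 -0.95 and of Pou3f1 -0.94. Mir7211 and Snord32a (-1.71 and -1.29) are small RNA genes, whose reads may belong to overlapping transcripts. Of the 56, 13 differed by at least 1 within both diets. The pooled difference over the same libraries chose these genes, so nothing is read from the 13. The interneuron peptide Npy, a listed gene, was also lower, at 42.7, 26.9 and 89.6 FPKM against 93.1, 117.5 and 94.5 FPKM, and its difference of -1.10 was -0.70 without chow replicate 1.

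The counts over all genes depended on single libraries. Without chow replicate 1, whose thalamic markers stand apart, 145 genes were called higher and 22 lower, with 25 choroid plexus genes among the calls. Without ketogenic replicate 3 the counts over all genes were 345 and 202, without chow replicate 3 they were 309 and 214, without ketogenic replicate 1 they were 258 and 233, and without chow replicate 2 they were 292 and 104. Classes that hold fewer libraries overlap less easily, which favours more calls by construction. The choroid plexus genes called ranged from 23 to 27 over these fits and the one without ketogenic replicate 2, a description, since the classes were chosen by one of them. Centring each library on its median gave 135 genes higher and 90 lower, and quantile normalization 132 and 74, beside 175 and 56.

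Diet is the labelled contrast of the study and was not used to form the classes, so the choroid plexus genes could be tested in it. None passed: of 16009 genes, 0 (0%) had an adjusted p under 0.05 for ketogenic against chow libraries (limma, two-sided, Benjamini-Hochberg), and 861 had an unadjusted p under 0.05. Of the 48 choroid plexus genes that passed the filter, 41 had negative and 7 positive differences, with a median of -0.47 and a lowest adjusted p of 0.752 by limma, and over all genes the median was -0.04. Of the choroid-rich libraries 1 was ketogenic and 2 were chow. Ttr had a mean log2 difference of -3.29 ± 3.21 (SE, n = 3 each, limma adjusted p = 0.791), with ketogenic values of 1074, 2.13 and 1.69 FPKM overlapping the chow values of 835, 1883 and 3.14 FPKM. Otx2 had -1.39 ± 1.09 (limma adjusted p = 0.763) and Foxj1 -0.88 ± 0.53 (limma adjusted p = 0.752). With the choroid class as a term in the fit, 0 genes were called and 562 had an unadjusted p under 0.05. The median of the 48 genes was then -0.09, with 14 positive, and the lowest limma adjusted p was 0.912. For the 24 called genes the median diet difference was -0.84 without and -0.11 with the class term. The class was set by Otx2 in these libraries and the 24 were called by it. A class term therefore narrows their diet difference by construction, and nothing is read from the smaller medians.

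**Figure D5:**
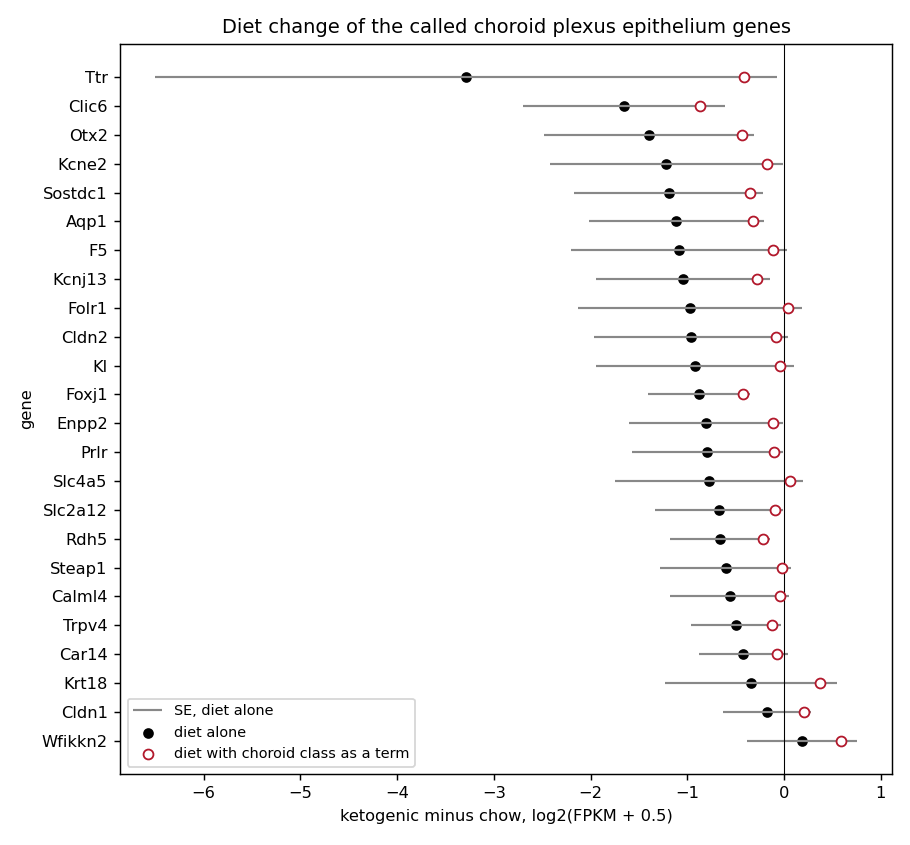
Ketogenic minus chow difference, log2(FPKM + 0.5), of the 24 called choroid plexus genes, 1 per row. Black points with bars (limma SE) come from diet alone and have a median of -0.84, and open red points, from the fit with choroid class as a term, have a median of -0.11. These genes were picked by their class difference, so the shift is built in.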

How the data were processed

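The authors deposited gene-level FPKM. Per the labels' protocols, poly(A) RNA was captured and made into random-primed paired-end libraries. Per the submitters' processing notes, HISAT2, featureCounts of Subread and GRCm39 were used. Versions, annotation and strand setting are not given in the sources, so overlapping or near-identical genes may share reads. Whole reads, recovered for 33859 of 33862 genes above 0 (99.99%, tolerance 0.001) up to a factor common to the libraries, served for depth and low values only.

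From the deposited FPKM, log2(FPKM + 0.5) was computed for 16009 of 36079 genes, those averaging at least 0.5 FPKM, and fitted with limma 3.58.1 in R 4.3.3 (lmFit, eBayes with trend). The script was tested on simulated data. Choroid-rich minus choroid-poor was described without a p. Ketogenic minus chow was tested two-sided, with Benjamini-Hochberg adjustment at 0.05, over 1 library per mouse. Symbols came from GENCODE M21 (15865 of those tested) and promoters from RefSeq. Library classes, the 24 lists (256 genes) and the rules were chosen with earlier results of these data known. Named genes are choroid list members, up to 4 of each other list by size of difference, and the 15 largest called differences per direction among genes whose symbol is no predicted model and whose higher class averages 1 FPKM or more. A summed level runs over all members of a list. Alternatives were other pseudocounts, filters, scalings and splitting genes, libraries left out, diet or class as a term, and a replicate block. Some genes under these rules are not reported here.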

Additional observations from a re-analysis of the deposited data

How the results depend on the processing

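The counts of called genes (175 higher, 56 lower in choroid-rich libraries) were 322 and 86 with a pseudocount of 0.1, 113 and 34 with a pseudocount of 1, 90 and 37 with a filter of 2 FPKM, and 305 and 85 on TPM, whose larger values make the pseudocount weigh less. Median centring gave 90 lower. Leaving out 1 library gave 145 to 345 higher and 22 to 233 lower. With a replicate block, 858 were higher and 685 lower. Same-numbered libraries deviated together only for number 2 (correlations -0.04, 0.48 and -0.22 for numbers 1, 2 and 3), while ketogenic 1 and chow 3 reached 0.45. No pairing by number was seen. The check cannot exclude one, since differences in region and plexus content enter these deviations. The 24 choroid plexus genes called were 11 with the filter of 2 FPKM and 20 to 28 elsewhere. The named differences and list medians kept their direction, whereas the median over all genes, near 0, changed sign with quantile normalization and median centring. The calls of Car14, Trpv4, Cldn1, Rsph1, Col8a1, Ermn, Ugt8a and Gfap, with differences near 1, ended without 1 or another library (0.76 to 0.99), as did those of Rpe65 (-0.84 without chow replicate 1) and Snord32a (-0.95 without ketogenic replicate 3). Of the values for single genes and lists, 58 moved by more than their spread and 616 did not. Many of the 616 could not move, since the splits by other genes gave the same classes and filters leave single-gene differences unchanged. Spread was the standard deviation among libraries of a class, so Shox2 at 1.92 without chow replicate 1, beside 3.23, counts as not moved. Nothing is read from this tally. The ketogenic minus chow comparison had 0 calls in every alternative, with 523 to 1845 genes at an unadjusted p under 0.05 (982 with the replicate block). Depth limits low genes: members with fewer than 3 reads in a library, such as Lmx1a and Slco1a5, cannot be told from 0 there. With 3 libraries per class and no label of the class, differences between regions and between plexus content cannot be told apart.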
